A study of Mus musculus with 24 samples.

Results

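Expression of the mouse MHC class I heavy chains, their light chain and their transactivator was followed in 24 bulk RNA-seq libraries of cultured T cells. The 10 genes were chosen by their gene names in the count table: H2-K1, H2-D1, H2-Q4, H2-Q6, H2-Q7, H2-T22, H2-T23, H2-M3, B2m and Nlrc5. All 10 were found among the 56748 genes of the table, and all 10 passed the filter on low counts, which kept 15885 genes.

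MHC class I molecules hold peptides from inside the cell at its surface, where T cells and natural killer cells read them. Each molecule pairs a heavy chain with beta-2 microglobulin, the light chain encoded by B2m, and a heavy chain that lacks the light chain or a peptide is largely kept inside the cell. NLRC5 is a transactivator that acts at the promoters of class I heavy chains and B2m, and interferon gamma raises the whole pathway. T cells carry class I at their own surface as well as reading it on others.

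The cells were wild-type mouse T cells of a strain that the labels do not give, polarized in culture to Th1, Th17 or regulatory (Treg) cells, or activated CD8 T cells, which the column names call Tc1. The title and library name of 1 library, with WMS-83, say Th17 where its source, cell type and column say Th1. It was taken as Th1. Its Th1 list summed to 1686 CPM (read counts on a common scale of library size), below the 1764 to 1890 of the 5 other Th1 libraries and above all 6 Th17 libraries, and its Th17 list to 795 CPM, against 741 to 800 in the other Th1 libraries and 1536 to 1862 in Th17. Each cell type has 6 libraries, 1 with the vehicle DMSO and 5 with a kappa opioid receptor agonist of the perhydroquinoxaline class at 0.1 µM for up to 5 days. The treatment protocol names WMS-83-02, WMS-76-04A, WMS-75-13, WMS-64-07 and WMS-200-01. In the sample labels the ending of each name other than WMS-76-04A counts up from cell type to cell type (WMS-200-01 in Th1, WMS-200-02 in Th17, WMS-200-03 in Treg), so the compounds are called here by their first number, as in the column names, and whether an ending marks another substance is not stated. With 1 library per treatment and cell type, the 6 libraries of a cell type differ in treatment, and each SD of a cell type measures their spread. Standard errors and p-values for pairs of cell types and for compounds measure the spread left after cell type and treatment. The 4 cell types serve there as replicates of a compound. For agonists within a cell type they measure the spread among agonist libraries. Column names further carry an unexplained WT number. All Th1 libraries have 4 and all CD8 libraries 2. Among Treg libraries DMSO and WMS-200 have 3 and the remaining 4 libraries have 2. Among Th17 libraries DMSO has 2, WMS-83 has 3 and the remaining 4 libraries have 1. Number 4 occurs in Th1 alone, so in every pair with Th1 the cell type and the WT number cannot be told apart. CD8 and Th17 share a number only through the Th17 library with DMSO. Libraries that share a number may share an animal, which was not tested.

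The deposited read counts summed to between 15188284 and 21946887 per library. Summed over each list, lineage genes matched the labels. The Th17 list was at 1536 to 1862 CPM in Th17 and at most 914 elsewhere. The Treg list was at 1918 to 2160 CPM in Treg and at most 907 elsewhere. The CD8 list reached 2597 to 2808 CPM in CD8 and at most 444 elsewhere, with 178 to 444 in Th17. Single genes did not all follow. Of 5 genes of the Th17 list, 3 were lower in Treg than in Th17, and Ccr6 (log2 difference 0.84) and Cd4 (0.46) were higher. Cd4 belongs to the Th1, Th17 and Treg lists and adds to each sum. The Th1 list, which includes the interferon gamma gene, was at 1686 to 1890 CPM in Th1 and higher still in CD8, at 2015 to 2145 CPM. Of 7 B cell markers, summed over the list, 4.64 to 14.5 CPM were counted in any library. The 9 myeloid and dendritic markers summed to 4.48 to 34.3 CPM, most of it Zbtb46, and Clec9a was at 0 in the Th17, Treg and CD8 libraries. Of 6 natural killer and gamma delta markers, 5 were in the table and summed to 1.5 to 13 CPM, and Klra8 was at 0 in Treg. The Treg libraries stand apart in their make-up: 83 ribosomal protein genes took 1.61 to 2.77% of their counts, against 9.39 to 12.4% in the other 18 libraries. Most ribosomal protein genes are short, and B2m, at 860 bases, is shorter than all but 8.59% of the genes tested, so the Treg differences of the shortest and longest of the 10 genes are also given with gene length fitted out. TPM, which divides counts by gene length and rescales them to a common total, moves with this make-up: over all genes tested, its median log2 difference was 0.84 for Treg over CD8, 0.90 over Th1 and 0.81 over Th17, against 0.08 to 0.09 in CPM. A TPM difference between Treg and another cell type is therefore read against that shift, and all tests used counts. In bulk RNA, fewer cells of a type and less RNA per cell cannot be told apart.

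The genes lie in 3 places. The file puts the heavy chains on chromosome 17, with H2-K1 at 34214991 to 34219321, H2-D1 at 35481706 to 35486475, H2-Q4 at 35598593 to 35604266, H2-Q6 at 35643826 to 35649031 and H2-Q7 at 35658131 to 35662749. H2-T23 follows at 36340665 to 36343747, H2-T22 at 36348020 to 36353639 and H2-M3 at 37581111 to 37585375. B2m lies on chromosome 2 at 121978167 to 121983564 and Nlrc5 on chromosome 8 at 95160984 to 95253900. All 10 are annotated as protein coding, and no source used here names the build of these positions.

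Class I promoters are known for a block of conserved elements, and 6 are shown. Whether these sequences bear on the levels below was not tested. The windows run from 250 bases before to 50 after the start, 5′ to 3′ on the gene's strand, from RefSeq on GRCm38.p6. Capitals mark 4 motifs searched on both strands, with no overlap among the matches. The kappa B palindrome GGGGATTCCCC and the core AGTTTCACTT of the interferon-stimulated response element were read from the H2-K1 window, which therefore holds both by construction, and TGACG, the short cyclic AMP response site, and the CCAAT box were given by their letters. The H2-K1 window is chr17:34000298-34000597 on the minus strand, the first of 2 windows in the table. H2-D1 is chr17:35262844-35263143, H2-Q6 chr17:35424600-35424899 and H2-Q7 chr17:35438905-35439204, all on the plus strand. H2-T23 is chr17:36032652-36032951 on the minus strand and B2m chr2:122147437-122147736 on the plus strand.
H2-K1: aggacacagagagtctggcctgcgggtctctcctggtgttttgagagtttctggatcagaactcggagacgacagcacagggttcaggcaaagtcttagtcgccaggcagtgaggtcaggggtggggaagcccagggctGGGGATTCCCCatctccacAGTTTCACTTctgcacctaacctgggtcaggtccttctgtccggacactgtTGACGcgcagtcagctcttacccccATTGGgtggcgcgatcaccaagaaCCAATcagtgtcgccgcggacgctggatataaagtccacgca
H2-D1: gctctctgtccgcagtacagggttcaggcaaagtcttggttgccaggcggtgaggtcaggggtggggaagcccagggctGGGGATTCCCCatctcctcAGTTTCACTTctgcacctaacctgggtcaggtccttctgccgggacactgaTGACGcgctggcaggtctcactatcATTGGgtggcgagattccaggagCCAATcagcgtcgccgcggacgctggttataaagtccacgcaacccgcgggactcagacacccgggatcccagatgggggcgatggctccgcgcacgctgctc
H2-Q6: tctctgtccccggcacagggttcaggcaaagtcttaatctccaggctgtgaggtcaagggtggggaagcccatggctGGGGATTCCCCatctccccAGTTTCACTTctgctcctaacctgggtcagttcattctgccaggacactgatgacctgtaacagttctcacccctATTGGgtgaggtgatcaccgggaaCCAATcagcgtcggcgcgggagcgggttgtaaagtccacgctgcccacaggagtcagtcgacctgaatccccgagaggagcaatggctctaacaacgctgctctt
H2-Q7: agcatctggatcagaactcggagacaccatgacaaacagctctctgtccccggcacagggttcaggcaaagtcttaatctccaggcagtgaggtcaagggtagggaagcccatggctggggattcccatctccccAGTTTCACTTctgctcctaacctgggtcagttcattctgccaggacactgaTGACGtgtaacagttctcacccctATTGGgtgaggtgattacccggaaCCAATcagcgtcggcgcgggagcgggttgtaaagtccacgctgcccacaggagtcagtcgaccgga
H2-T23: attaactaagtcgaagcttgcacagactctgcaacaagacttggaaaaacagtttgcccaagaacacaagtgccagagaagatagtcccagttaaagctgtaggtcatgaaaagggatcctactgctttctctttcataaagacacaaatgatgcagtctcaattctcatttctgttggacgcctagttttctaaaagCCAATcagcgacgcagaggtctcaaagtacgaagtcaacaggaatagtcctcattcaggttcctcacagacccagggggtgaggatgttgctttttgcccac
B2m: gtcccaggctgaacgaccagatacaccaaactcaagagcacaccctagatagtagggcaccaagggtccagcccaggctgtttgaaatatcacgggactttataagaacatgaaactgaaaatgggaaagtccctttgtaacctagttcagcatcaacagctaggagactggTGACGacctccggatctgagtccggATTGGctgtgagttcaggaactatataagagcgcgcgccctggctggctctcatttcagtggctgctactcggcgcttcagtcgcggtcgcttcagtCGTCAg

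Windows were present for 9 of the 10 genes. The kappa B palindrome as spelled was in 3 of them (H2-K1, H2-D1 and H2-Q6), and in 6 of 27025 promoters of the same length, 0.0222%, of which these are 3. The response element core was in 6 (H2-K1, H2-D1, H2-Q4, H2-Q6, H2-Q7 and H2-T22), and in 44 promoters, 0.163%, of which these are 6. The heavy chains are paralogs of H2-K1, so their matches are not independent of its spelling. The TGACG site was in 7 of 9, against 21.0% of all promoters, and the CCAAT box in 9 of 9, against 37.9%. In H2-K1, H2-D1 and H2-Q6 the palindrome stands just before the response element core, for instance at bases −111 and −92 from the start of H2-K1 and at −173 and −154 in H2-Q6. Positions count from the start of each window used, and the second H2-K1 window was not searched, so they are not compared between genes. H2-Q7 holds the response element core at −115, but not the palindrome as spelled. The same holds for H2-Q4, whose window is not shown, with the core at −155. As spelled, H2-T23 holds only a CCAAT box among the 4 motifs, and B2m holds 2 TGACG sites and a CCAAT box. Matches had to be exact, so an element with a slightly different spelling counts as absent. The H2-Q7 window, for instance, holds ggggattccca. Other spellings were not searched for, so windows without a match, that of B2m among them, may still hold such elements.

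The likeness of these genes also bears on their counts. Transcript sequences were cut into overlapping words, and words also found in another gene's transcripts were counted, in the GENCODE M21 annotation. Of words of 100 bases, 17.2% were shared in H2-Q7, 12.4% in H2-T22, 10.8% in H2-Q6, 7.28% in H2-T23, 4.09% in H2-D1 and 2.66% in H2-Q4, and none in H2-K1, H2-M3, B2m or Nlrc5. At 150 bases H2-Q7 had 8.31%, H2-Q6 5.99%, all with H2-Q7, H2-D1 1.54%, H2-T23 0.831% and H2-T22 0.774%. At 50 bases the shares were 43.9% in H2-T22, 34.9% in H2-Q7, 32.0% in H2-Q6, 28.8% in H2-T23, 24.3% in H2-Q4, 13.9% in H2-D1, 6.87% in H2-K1 and 0.576% in H2-M3, and none in B2m or Nlrc5. H2-T22 shared most with H2-T10 at each length, and H2-Q7 most with H2-Q5 at 50 bases and with H2-Q6 at 100 and 150. No source used here gives the read length or the handling of reads that fit several genes, so values of the heavy chains are uncertain.

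Classical heavy chains made up most of the class I heavy-chain RNA in every cell type. H2-K1 and H2-D1, which present peptides to CD8 T cells, together held 83.4 ± 0.170% of the summed heavy-chain TPM in Th1 (SD, n = 6). Th17 had 85.7 ± 0.746%, CD8 83.3 ± 0.458% and Treg 76.9 ± 1.11%. Their share was lowest in all 6 Treg libraries, at 75.2 to 78.1%, and did not overlap the other libraries, which ran from 82.5 to 86.8%. In TPM H2-K1 was the highest heavy chain in each cell type, with a mean of 1718 in Th1, 1342 in Th17, 3584 in Treg, and 1901 for CD8. H2-D1 followed with 1315, 1086, 2186 and 1428 TPM. H2-Q6 was the lowest heavy chain in each, with means of 3.79, 1.77, 42.5 and 11.9 TPM in the same order.

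H2-K1 was at 1662 to 1801 CPM in Th1 (median 1740), 1196 to 1398 in Th17 (median 1276), 1745 to 2341 in Treg (median 2085) and 1759 to 1962 in CD8 (median 1841). Every Th17 library lay below every other library, while Treg, CD8 and Th1 overlapped. Separate ranges were common in these libraries, for this gene and those below. Of all genes tested, 59.3% had no overlap between Treg and CD8, 58.4% between Treg and Th1 and 54.1% between Treg and Th17. The share was 32.4% between CD8 and Th17, 31.7% between Th1 and Th17 and 13.7% between CD8 and Th1. Against Th17, H2-K1 was higher in Treg by 0.68 ± 0.07 on the log2 scale (SE; adjusted p = 1.26e-09), in CD8 by 0.53 ± 0.07 (3e-07) and in Th1 by 0.43 ± 0.07 (7.83e-06), each adjusted p from edgeR over all genes tested. Treg also exceeded Th1 (0.25 ± 0.07, adjusted p = 0.00173). The step from CD8 to Treg was small (0.15 ± 0.07, adjusted p = 0.0465) and missed the threshold in 4 of 8 other settings and in 23 of 24 fits with 1 library left out, every one but that without the Treg library with WMS-64. It was 0.25 (adjusted p = 0.0024) with gene length fitted out, 0.17 (0.00815) with DESeq2, 0.11 (0.176) with the WT number as a block and 0.13 (0.105) with no filter on low counts. CD8 and Th1 differed by 0.10 (95% interval −0.04 to 0.24).

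H2-D1 had the narrowest range among the cell types. Its levels were 1089 to 1207 CPM in Th1 (median 1171), 818 to 1002 in Th17 (median 916), 985 to 1223 in Treg (median 1121) and 1181 to 1244 in CD8 (median 1227). Th17 was again lowest, but its highest library reached into the Treg range. Against Th17 the gene rose by 0.42 ± 0.06 in CD8 (adjusted p = 2.16e-06), 0.35 ± 0.06 in Th1 (3.24e-05) and 0.27 ± 0.06 in Treg (0.000268) on the log2 scale. Treg was lower than CD8 by a log2 difference of −0.15 ± 0.06 (adjusted p = 0.0308), a call that was lost with gene length fitted out (−0.04, adjusted p = 0.54), with RLE scaling, and without the Treg library with WMS-64 or WMS-75, at −0.15 to −0.04 in these 4 fits. Treg against Th1 gave −0.08 (interval −0.20 to 0.05), and 0.04 with length fitted out. In TPM the direction turns: H2-D1 was at 1913 to 2593 in Treg and 1387 to 1486 in CD8, a log2 difference of 0.61, or −0.22 relative to the shift of all genes.

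Heavy chains of the Q region followed the cell type most steeply. H2-Q4, H2-Q6 and H2-Q7 are nonclassical genes, and H2-Q6 and H2-Q7 belong to the Qa-2 group, whose products can be tethered to the membrane by a lipid anchor. Together the 3 genes held 10.1 to 13% of heavy-chain TPM in Treg, against 4.87 to 5.4% in CD8, 4.22 to 4.55% in Th1 and 3.14 to 4.11% in Th17. Summed over all 8 H2-Q genes of the table, between which shared reads could be moved, the level was 412 to 768 CPM in Treg, 243 to 266 in CD8, 171 to 189 in Th1 and 83.5 to 104 in Th17. The order Treg, CD8, Th1, Th17 held library by library in that sum, with no overlap between neighbours.

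H2-Q4 was at 301 to 490 CPM in Treg (median 376), 147 to 165 in CD8 (median 152), 120 to 142 in Th1 (median 129) and 70.9 to 91 in Th17 (median 79.4). No neighbours in that order overlapped. The log2 difference was 1.32 ± 0.08 for Treg over CD8 (adjusted p = 9.35e-14), 1.57 ± 0.08 over Th1 (3.31e-15) and 2.24 ± 0.09 over Th17 (8.04e-18), the last a 4.74-fold difference. CD8 exceeded Th1 by only 0.25 ± 0.08 (adjusted p = 0.0386), which missed the threshold when any of 9 single libraries was left out (0.21 to 0.26).

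H2-Q7 was at 26.3 to 61.9 CPM in Treg (median 41.1), 20.8 to 28 in CD8 (median 24.8), 8.17 to 13.1 in Th1 (median 12) and 4.39 to 7.55 in Th17 (median 5.51). The Treg and CD8 ranges met at their ends, and the lower steps did not overlap. Treg exceeded CD8 by 0.78 ± 0.11 (adjusted p = 7.84e-07), and CD8 exceeded Th1 by 1.10 ± 0.12 (1.46e-07) on the log2 scale. Th1 in turn exceeded Th17 by 1.03 ± 0.13 (2.46e-07), and Treg was 7.51-fold above Th17.

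H2-Q6 had the widest spread within cell types. Its levels were 9.83 to 33.8 CPM in Treg (median 14.4), 6.3 to 13.5 in CD8 (median 7.31), 1.12 to 7.71 in Th1 (median 1.86) and 0.56 to 2.01 in Th17 (median 1.11), from 11 to 641 counts per library. Neighbours overlapped at every step. The log2 difference was 3.79 ± 0.35 between Treg and Th17 (adjusted p = 2.23e-09), 2.76 ± 0.32 between Treg and Th1 (7.21e-08) and 0.95 ± 0.29 between Treg and CD8 (0.00534). The last was 0.70 (adjusted p = 0.0938) among the 8 libraries of Treg and CD8 with WT number 2 paired by treatment, a fit that called 7 of the 10 genes and 73.6% of all genes. Th1 exceeded Th17 by 1.03 ± 0.38 (adjusted p = 0.0286), a call lost in 0 of 5 other settings but in 6 of 24 fits with 1 library left out. These were without the Th1 library with DMSO, where the difference was 0.66 (adjusted p = 0.143), or with WMS-75, and without the Th17 library with DMSO, WMS-64, WMS-76 or WMS-83.

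Heavy chains of the T and M regions did not share an order. H2-T23 encodes Qa-1, which shows leader peptides of other class I chains to the inhibitory receptor CD94/NKG2A. It was at 291 to 427 CPM in Treg (median 365), 268 to 301 in Th1 (median 279), 234 to 268 in CD8 (median 256) and 150 to 184 in Th17 (median 165). The Th17 libraries lay apart below, and the lowest Treg library fell within the Th1 range. Treg exceeded Th17 by 1.14 ± 0.07 (adjusted p = 1.46e-13), CD8 by 0.52 ± 0.07 (2.87e-07) and Th1 by 0.36 ± 0.07 (6.02e-05), while CD8 and Th1 differed by −0.16 (interval −0.31 to −0.01, adjusted p = 0.14).

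H2-T22, a ligand of some gamma delta T cell receptors, was highest in CD8 in CPM. It was at 171 to 185 CPM in CD8 (median 178), 141 to 157 in Th1 (median 154), 104 to 121 in Treg (median 113) and 97.4 to 121 in Th17 (median 115). CD8 stood above Th1 and Th1 above both others without overlap, and Treg and Th17 covered the same range. Treg was lower than CD8 by a log2 difference of −0.65 ± 0.06 (adjusted p = 5.38e-11) and than Th1 by −0.42 ± 0.06 (1.39e-07). Against Th17 it differed by 0.02 (interval −0.09 to 0.14). In TPM the order turns, with 158 to 194 in Treg, 155 to 159 in CD8 and 123 to 136 in Th1. The TPM log2 difference was 0.11 for Treg over CD8 and 0.38 over Th1, or −0.73 and −0.51 relative to the shift of all genes. Its closest relative by sequence, H2-T10, was higher in Treg, with 63.4 to 72.4 CPM in Treg against 35 to 43.5 in CD8 and 39.1 to 47.6 in Th1.

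H2-M3, which presents bacterial peptides with a formylated first residue, was low throughout. It was at 20.2 to 26 CPM in Treg (median 22.5), 15.7 to 22.4 in CD8 (median 18.8), 12.2 to 17.9 in Th1 (median 15.2) and 12.1 to 14.5 in Th17 (median 13). Ranges of neighbours overlapped at each step. Treg exceeded Th17 by 0.77 ± 0.09 (adjusted p = 2.67e-08) and CD8 by 0.28 ± 0.09 (0.00622), the latter 0.26 (0.0503) in the libraries with WT number 2 paired by treatment. With gene length fitted out the same differences were 0.96 and 0.54. Th1 and Th17 differed by 0.16 (interval −0.03 to 0.35).

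**Figure D1:**
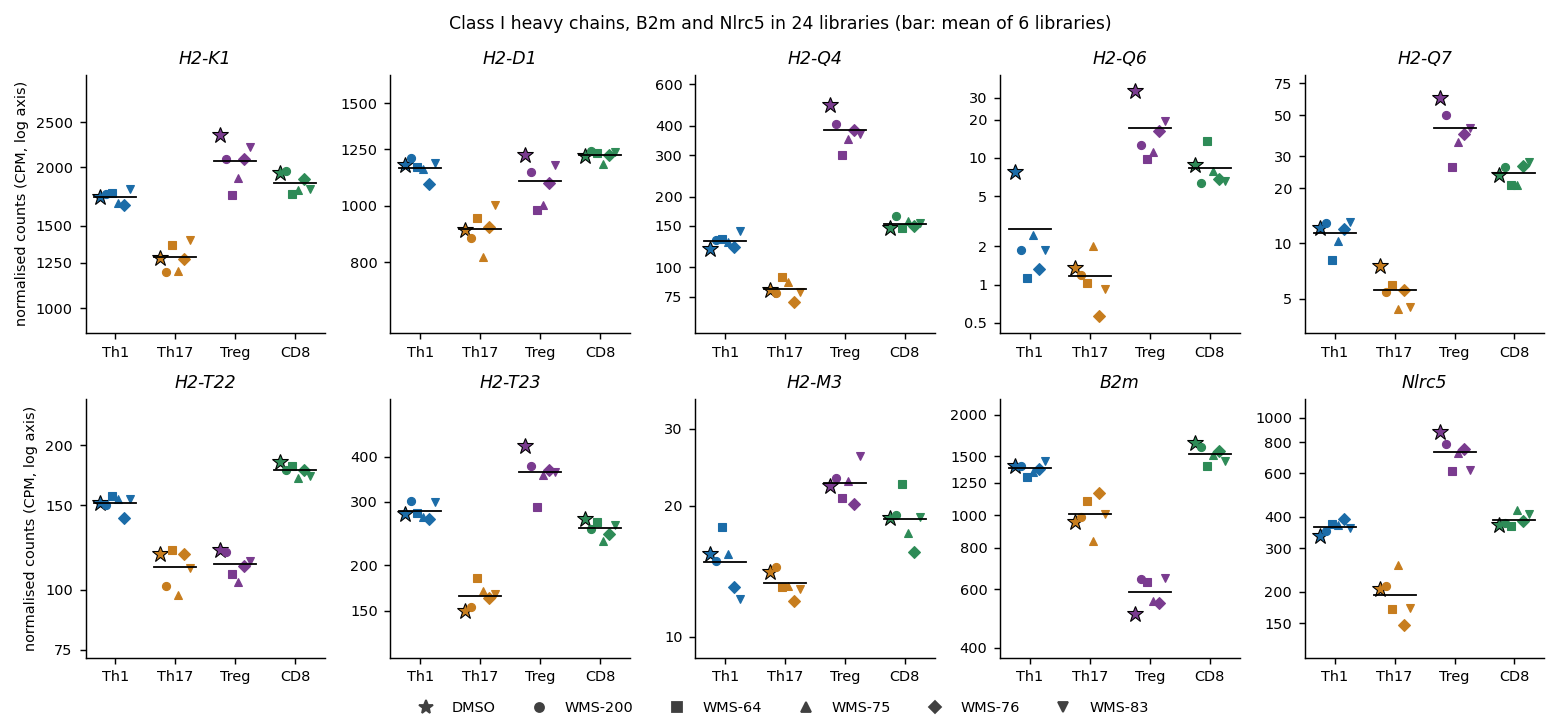
Normalised counts (CPM, log axis) of the 10 genes in each library by cell type. Stars are DMSO, other symbols the 5 agonists, and bars the mean of 6 libraries. H2-Q4 separates the cell types with no overlap, B2m is at 505 to 647 CPM in Treg against at least 837 elsewhere, and H2-T22 peaks in CD8 on this scale, though not in TPM.

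The light chain was lower in Treg by the count-based test, against most heavy chains. B2m was at 505 to 647 CPM in Treg (median 592), 837 to 1169 in Th17, 1302 to 1450 in Th1 (median 1393) and 1406 to 1649 in CD8 (median 1539). In CPM all 6 Treg libraries lay below all 18 others, and all Th17 libraries below those of Th1 and CD8. Pair by pair, 30.7% of all genes tested lay wholly lower in Treg than in CD8, 30% than in Th1 and 29% than in Th17. In TPM Treg and Th17 overlapped, at 3148 to 3907 and 3343 to 3905, while Th1 was at 4464 to 4881 and CD8 at 4811 to 5624. The TPM log2 difference of Treg was −0.05 from Th17, −0.43 from Th1 and −0.63 from CD8, or −0.86, −1.33 and −1.46 relative to the shift of all genes. The log2 difference of Treg was −1.38 ± 0.08 from CD8 (adjusted p = 1.06e-14), −1.24 ± 0.08 from Th1 (9.52e-14) and −0.78 ± 0.08 from Th17 (9.25e-10). With gene length fitted out these were −0.99, −0.81 and −0.49 and remained past the threshold. The part of RNA make-up in what is left was not tested. Among the libraries with WT number 2 alone, Treg was lower than CD8 by −1.37 (adjusted p = 1.71e-14).

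Set against B2m, the heavy-chain transcripts of Treg were in excess. The summed TPM of the 8 heavy chains per TPM of B2m averaged 2.18 ± 0.396 in Treg (range 1.7 to 2.88), 0.792 ± 0.0746 in Th17 (0.676 to 0.882), 0.776 ± 0.0318 in Th1 (0.737 to 0.832) and 0.747 ± 0.0333 in CD8 (0.709 to 0.797; SD, n = 6 each). Every Treg library had more heavy-chain than B2m transcript per length and every other library had less. H2-K1 alone gave the same picture, with ratios of 0.809 to 1.36 in Treg and 0.319 to 0.42 in the other 18 libraries. The ratio does not depend on library size but carries the difference in length between the genes, so it shares the length dependence given above for B2m.

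**Figure D2:**
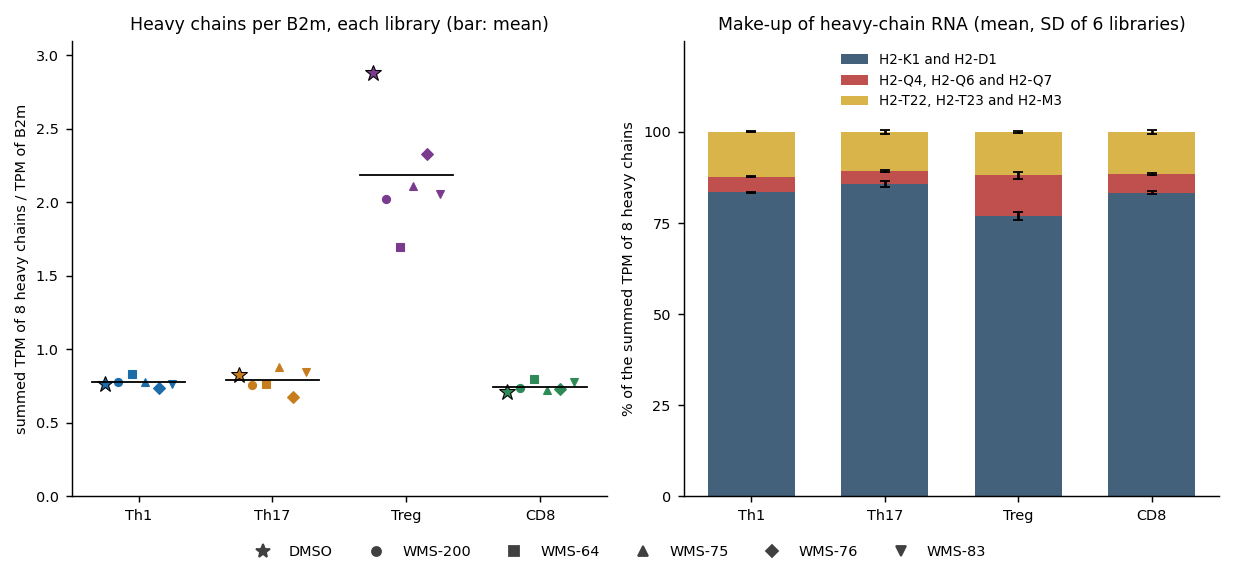
Left, summed TPM of the 8 heavy chains divided by the TPM of B2m in each library. Treg libraries sit at 1.7 to 2.88 and all others at 0.676 to 0.882. Right, share of heavy-chain TPM (%) from the classical, Q region and T or M region genes, as means with SD of 6 libraries: the Q region share is 11.2% in Treg and 3.58 to 5.18% elsewhere.

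Nlrc5, the transactivator, followed the order of the Q region genes. It was at 614 to 880 CPM in Treg (median 736), 369 to 425 in CD8 (median 382), 334 to 392 in Th1 (median 366) and 147 to 257 in Th17 (median 189). Treg stood above and Th17 below all other libraries, and CD8 and Th1 overlapped (log2 difference 0.10, interval −0.09 to 0.29). Treg exceeded Th17 by 1.92 ± 0.10 (adjusted p = 2.22e-15), Th1 by 0.99 ± 0.09 (4.53e-10) and CD8 by 0.89 ± 0.09 (2.99e-09). Nlrc5 has 8493 bases, longer than 87.7% of the genes tested, and with length fitted out the 3 differences were 1.74, 0.75 and 0.67, all past the threshold.

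Counted by pair, the 10 genes read as follows against all 15885 genes tested. Between Treg and CD8, 7 were higher and 3 lower in Treg, where 40.2% of all genes were higher and 37.8% lower (78% in either direction). Between Treg and Th1, 7 were higher and 2 lower, against 40.1% and 37.3% (77.5%), and between Treg and Th17, 8 were higher and 1 lower, against 38.3% and 36.5% (74.9%). The share of genes called in the Treg pairs is so large that the number of calls there is near the background. CD8 exceeded Th17 in 10 of 10 genes, where 24.3% of all genes were higher and 22.8% lower (47.1%), and Th1 exceeded Th17 in 9 of 10, all but H2-M3, against 24.1% and 23.2% (47.3%). CD8 exceeded Th1 in 5 genes and was lower in none, against 8.69% and 7.26% (16%): H2-Q4, H2-Q6, H2-Q7, H2-T22 and H2-M3. The H2-M3 call was lost by edgeR with no filter on low counts (0.34, adjusted p = 0.0513). With 1 library left out it was lost in 1 of 24 fits, and that of H2-Q4 in 9 of 24. Neither classical heavy chain, nor B2m or Nlrc5, passed between CD8 and Th1. Median log2 differences over the 10 genes were 0.65 for CD8 over Th17 and 0.57 for Th1 over Th17, against 0.00 and 0.02 over all genes.

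**Figure D3:**
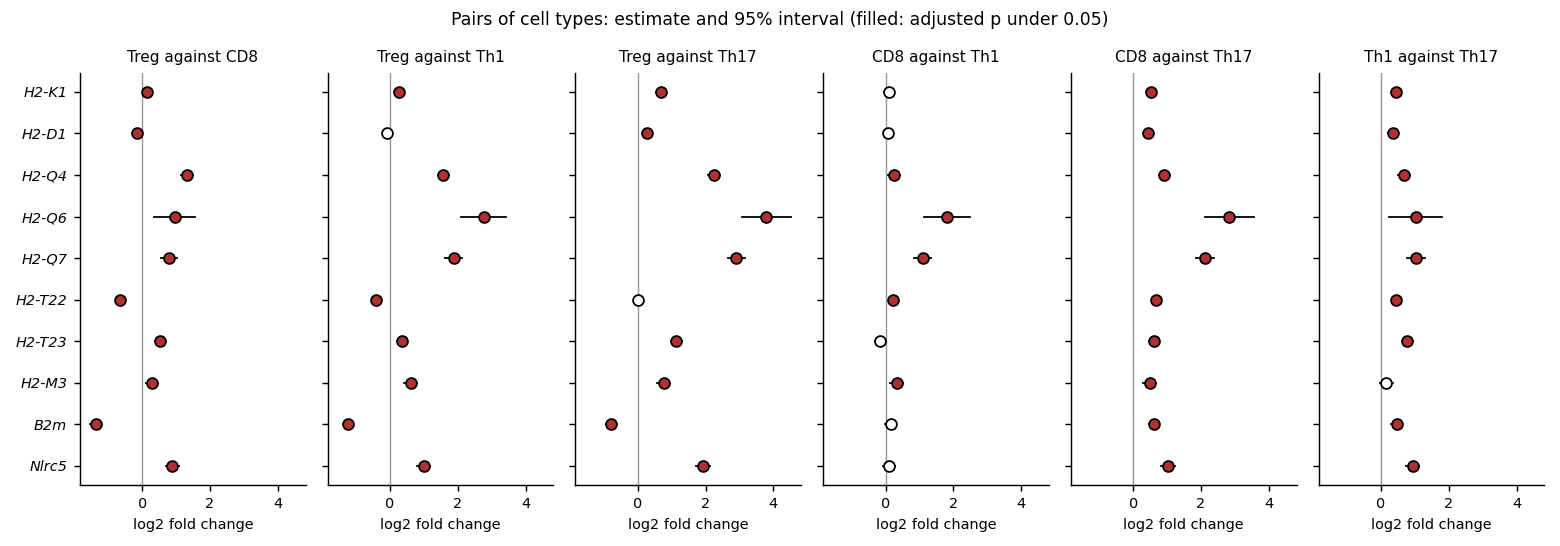
Log2 fold change of each gene in the 6 pairs of cell types, with 95% intervals. Filled points have an adjusted p under 0.05. All 10 genes lie right of 0 for CD8 against Th17, and B2m lies left of 0 in the 3 Treg pairs, at −1.38, −1.24 and −0.78.

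Other genes of the pathway were counted in lists chosen with earlier results of these data known. The shares of all genes called in each pair, given above, are the background for these counts. Of 11 genes of peptide loading, 8 were higher and 1 lower in Th1 than in Th17, with a median of 0.50 against 0.02 over all genes. The largest rises were those of Tapbpl, a relative of tapasin that edits peptides (1.18 ± 0.05), and Erap1, the peptidase that trims them (1.09 ± 0.07). Between Treg and Th1 the same list gave 2 higher and 9 lower genes. Tapbp, the tapasin bridge (0.58 ± 0.05), and Tap1, a subunit of the peptide transporter (0.20 ± 0.06, adjusted p = 0.00231), were higher, and Calr, the chaperone calreticulin, was lowest (−1.88 ± 0.09).

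Of 10 proteasome genes, 1 was higher and 9 lower in Treg than in Th1, where 40.1% of all genes were higher and 37.3% lower, with a median of −1.24 against 0.09. Against Th17 the list had 4 higher and 6 lower. Ribosomal protein genes moved the same way, at 2.21% of counts in Treg and 10.4 to 11.8% in the other cell types (means), and their part in this difference was not tested. The gene higher in Treg than in Th1 was Psmb9, an interferon-inducible subunit of the immunoproteasome (0.39 ± 0.08, adjusted p = 4.42e-05). The 9 lower genes included Psmb8 and Psmb10, which also encode immunoproteasome subunits. Among them Psmb5, the constitutive catalytic subunit, had −2.36 ± 0.08 and Psmb7 −2.20 ± 0.12. Against Th17, Th1 was higher in 8 of 10, led by Psmb9 (1.53 ± 0.08) and Psmb8 (1.29 ± 0.06). Between CD8 and Th1 the median of the list was −0.08, and edgeR called 0 of the 10.

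Regulators and the interferon gamma pathway were also compared. Among 15 regulators of class I transcription, 7 were higher and 5 lower in Treg than in Th1, near the share of all genes called in that pair (77.5%), with a median of 0.05 against 0.09. Among them Ciita, the class II transactivator (1.23 ± 0.29), and Rfx5, a DNA-binding partner of the transactivators (0.81 ± 0.06), rose most. Irf1, the interferon-induced factor, was the largest rise in Treg over Th17 (3.01 ± 0.08) and in Th1 over Th17 (2.30 ± 0.08). Of 12 interferon gamma pathway genes, 8 were higher and 4 lower in Th1 than in Th17, where 24.1% of all genes were higher and 23.2% lower, with a median of 0.36 against 0.02. Ifng itself, the gene of interferon gamma, was at 591 ± 72.8 CPM in Th1, 1368 ± 57.3 in CD8, 5 ± 2.04 in Th17 and 0.255 ± 0.141 in Treg (SD, n = 6). Treg had the lowest Ifng and the highest Nlrc5, H2-Q4 and Irf1, at 272 ± 53.6 CPM for Irf1 against 165 ± 6.35 in Th1. The part of interferon gamma in these levels was not tested.

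**Figure D4:**
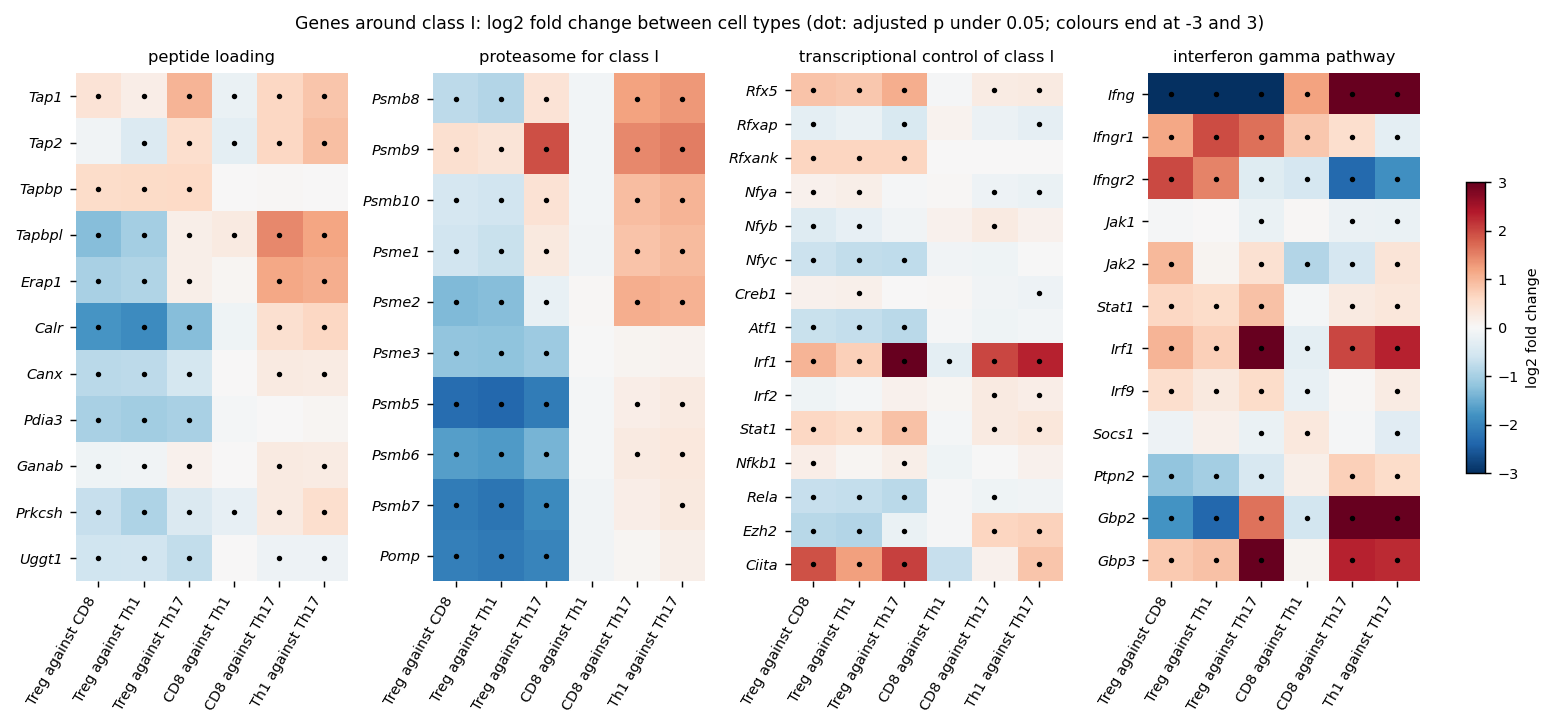
Log2 fold change of 48 list entries around class I in the 6 pairs of cell types, in 4 lists. Dots mark an adjusted p under 0.05, and colours end at −3 and 3. Against Th1, Psmb9 and Tap1 are higher in Treg. The 9 other proteasome genes are lower there, with Psmb5 at −2.36, and Calr is at −1.88.

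Of 26 other class I and class I-like genes, 22 were in the table and 12 were tested, so these counts leave out the lowest genes. In Treg over Th17, 9 were higher and 0 lower, a share called near the background of 74.9% (38.3% higher and 36.5% lower), and the median was 1.26 against 0.09. H2-Q10, a Q region gene whose product is secreted in other tissues, stood against the other Q genes: it was at 21.1 to 27 CPM in CD8 and 11.8 to 14 in Th1, but at 0.275 to 1.44 in Treg and 0.128 to 0.458 in Th17. Cd1d1, which presents lipids, was at 8.03 to 10.6 CPM in Treg and at most 3.72 elsewhere. Among 8 class II genes, 5 were higher and 1 lower in Treg than in Th1, near the background of 77.5%, with a median of 0.98 against 0.09. H2-Ob (3.73 ± 0.18) and H2-DMb1 (3.48 ± 0.32), both of class II peptide loading, rose most. The lower gene was H2-Ab1, which encodes a class II chain (−0.93 ± 0.17). Of 7 B cell markers 4 were higher too, Cd79b (1.73), Ms4a1 (1.48), Cd79a (0.83) and Pax5, and Ebf1 was lower (−3.54). Their sum was 8.98 to 13.7 CPM in Treg and 10.4 to 13.5 in Th1, and their part in the class II counts was not tested.

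Genes with the most similar profile were sought over the 24 libraries among 11483 genes with a mean log2 CPM of at least 1, by the root mean square difference of centred log2 CPM. The nearest gene to H2-T23 was Tap1 (0.100), a gene of the pathway lists. H2-K1 was nearest to Tpm1 (0.111), Dgkd (0.116) and Pced1b (0.122), and H2-D1 to Arhgap30 (0.0971), Kcnn4 (0.102) and Fam53c (0.108). Nlrc5 was nearest to Itpr1 (0.148) and Parp14 (0.184), and B2m to Nfu1 (0.109), Otulin (0.112) and Ube2f (0.112). Art2b was the nearest gene to both H2-Q6 (0.688) and H2-Q7 (0.374), at larger distances, and H2-Q4 was nearest to Ankrd39 (0.163). The other nearest genes were Tax1bp1 for H2-T22 (0.103) and Rinl for H2-M3 (0.150).

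Across the cell types no class I gene passed the test with agonists, and H2-Q6 had the largest estimate. The 20 agonist libraries were compared with the 4 DMSO libraries within cell types. With edgeR 0 of 10 genes passed, where 0% of all genes did, 2 had an unadjusted p under 0.05, and limma-voom and DESeq2 also called 0 of 10. The estimate for H2-Q6 was −1.10 ± 0.28 (interval −1.68 to −0.52, adjusted p = 0.992) and for H2-Q7 −0.34 ± 0.11 (interval −0.57 to −0.11). For the other 8 genes the estimates lay between −0.08 and 0.04, and their intervals between −0.24 and 0.19. H2-K1 was at −0.08 (interval −0.21 to 0.06) and B2m at 0.04 (interval −0.11 to 0.19).

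H2-Q6 is given next by cell type. In Th1 the DMSO library had 7.71 CPM (156 counts), and the agonist libraries had 1.87 with WMS-200, 1.12 with WMS-64, 2.47 with WMS-75, 1.32 with WMS-76 and 1.86 with WMS-83, from 20 to 39 counts. All 5 were below DMSO. The log2 difference was −2.17 ± 0.41, with an unadjusted p of 1.49e-05 and an adjusted p of 0.237 by edgeR, where 0% of all genes passed. With DESeq2 the adjusted p was 0.0062, and it was 3.18e-10 by edgeR with no filter on low counts. Leaving out the CD8 library with WMS-64 gave 0.0228, so the call rests on the setting. H2-Q7, which shares reads with H2-Q6, was at 12.1 CPM with DMSO and 8.17 to 13.1 with agonists (log2 difference −0.09, interval −0.61 to 0.43). H2-Q6 was thus 39% of the summed counts of the pair in the Th1 DMSO library and 9.88 to 19.3% in the others.

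At the settings chosen, H2-Q4 and H2-Q6 passed the test in Treg without the WT number in the fit, and neither passed with it. H2-Q7 passed at some other settings. H2-Q6 was at 33.8 CPM with DMSO and at 12.6 with WMS-200, 9.83 with WMS-64, 11.1 with WMS-75, 16.2 with WMS-76 and 19.7 with WMS-83. H2-Q4 was at 490 CPM with DMSO and at 408, 301, 351, 384 and 368 in the same order of agonists. H2-Q7 was at 61.9 CPM with DMSO and at 50.1, 26.3, 35.8, 39.6 and 42.5. All 5 agonist libraries lay below DMSO for these 3 genes, as they did for H2-K1, H2-D1, H2-T22, H2-T23 and Nlrc5, 8 of the 10 genes, and all 5 lay above it for B2m. Of all genes tested, 19.6% lay wholly below the single Treg DMSO library and 28.7% wholly above. In the other cell types fewer of the 10 genes lay on 1 side: H2-T22, H2-T23 and B2m were below in CD8, H2-Q6 below and H2-Q4 and Nlrc5 above in Th1, and H2-Q7 below and H2-T23 above in Th17. There 13.2 to 15.3% of all genes lay wholly above DMSO and 14.9 to 17.9% wholly below. By edgeR H2-Q4 fell by 0.44 ± 0.12 (adjusted p = 0.0222) and H2-Q6 by 1.28 ± 0.36 (0.0264) on the log2 scale. These were 2 of 10 genes, where 8.82% of all genes passed, 7.64% higher and 1.18% lower. H2-Q7 had −0.67 ± 0.22 (adjusted p = 0.054). It was past the threshold with DESeq2 (−0.72), with gene length fitted out (−0.72) and with no filter on low counts (−0.63). Whether H2-Q7 is called beside H2-Q4 and H2-Q6 thus rests on the setting. The remaining genes did not pass by edgeR at the settings chosen: H2-T23 had −0.29 ± 0.11 (0.114), Nlrc5 −0.34 ± 0.17 (0.246), H2-K1 −0.22 ± 0.12 (0.272) and B2m 0.26 ± 0.14 (0.264). H2-T23 passed with DESeq2 (−0.34).

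The WT number moves with this comparison, since DMSO and WMS-200 share number 3 and the other agonists have number 2. In Treg, WMS-200 against DMSO is thus the one comparison within a number. With the number as a block, the Treg estimate rests on that comparison of single libraries. A call lost there therefore cannot decide what part the number has in the difference. With the number as a block, 0 of 10 genes passed by edgeR and 1 had an unadjusted p under 0.05. H2-Q4 then had −0.27 (adjusted p = 0.559), H2-Q6 −1.42 (0.314) and H2-Q7 −0.31 (0.774). H2-Q4 was at 408 and 490 CPM in the number 3 libraries and at 301 to 384 in those with number 2, and H2-Q7 at 50.1 and 61.9 against 26.3 to 42.5. For H2-Q6 the number 3 libraries, at 12.6 and 33.8 CPM, spanned the number 2 range of 9.83 to 19.7. Treg has 1 DMSO library, whose spread was taken to equal that of the agonist libraries.

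In Th17 and CD8 none of the genes passed. With edgeR 0 of 10 genes passed in Th17, where 0.0378% of all genes did (0.0126% higher, 0.0252% lower), and 0 of 10 in CD8, where 0.0063% did. No gene of the 10 had an unadjusted p under 0.05 in either. H2-Q6 was at 1.34 CPM with DMSO and 0.56 to 2.01 with agonists in Th17, and at 8.72 with DMSO and 6.3 to 13.5 with agonists in CD8, in both cases with DMSO inside the agonist range. The test of whether the agonist effect differed between cell types gave an adjusted p of 0.201 for H2-Q6 and 0.222 for H2-Q4, where 0.176% of all genes passed, so a difference between cell types is not shown for either.

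**Figure D5:**
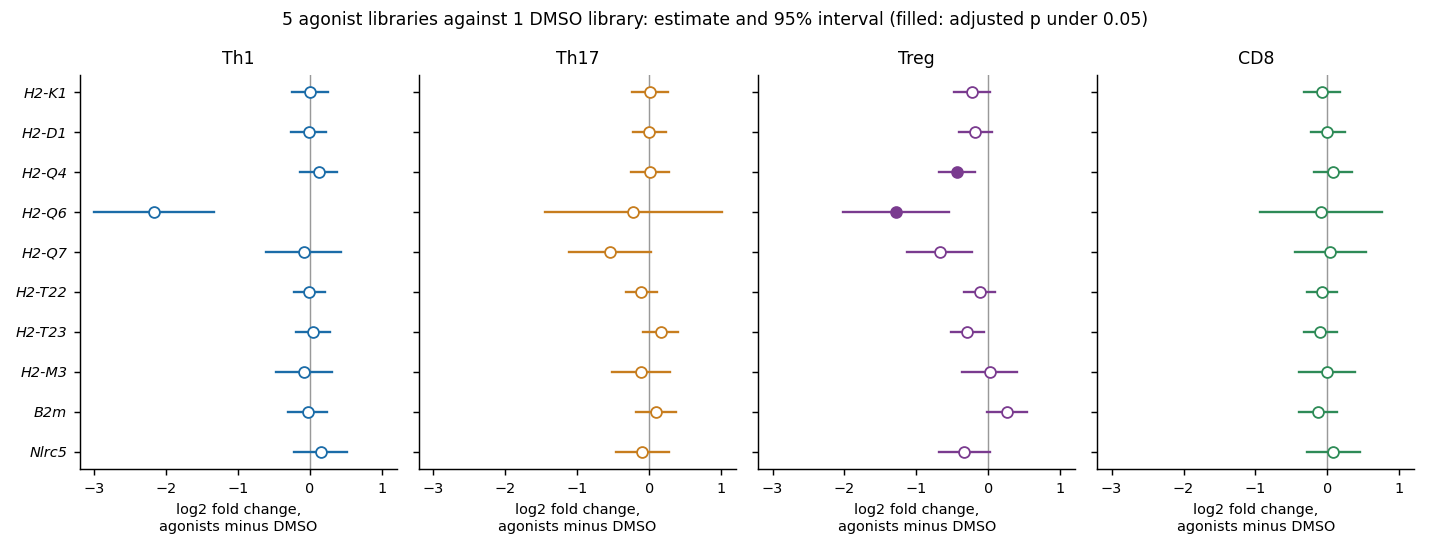
Log2 fold change of the 5 agonist libraries against the DMSO library in each cell type, with 95% intervals. Filled points have an adjusted p under 0.05. H2-Q4 (−0.44) and H2-Q6 (−1.28) are filled in Treg, and H2-Q6 in Th1 lies at −2.17 with an adjusted p of 0.237.

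Each compound was also set against DMSO across the cell types, in comparisons that share the 4 DMSO libraries. None of the 10 genes passed for any compound by edgeR, limma-voom or DESeq2, where 0% of all genes passed in each edgeR comparison. Unadjusted p was under 0.05 for H2-Q6 with all 5 compounds, for H2-Q7 with WMS-64 and WMS-75 and for H2-T22 with WMS-75. The log2 difference of H2-Q6 was −1.24 ± 0.39 with WMS-200, −1.04 ± 0.39 with WMS-64, −0.92 ± 0.39 with WMS-75, −1.29 ± 0.38 with WMS-76 and −1.03 ± 0.38 with WMS-83. H2-Q7 had −0.61 ± 0.15 with WMS-64 (interval −0.92 to −0.30, adjusted p = 0.752) and −0.51 ± 0.15 with WMS-75.

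The 5 agonists, at the same dose, were compared with each other in 10 pairs. None of the 100 tests of a gene in a pair passed over all genes by edgeR, and 8 had an unadjusted p under 0.05. The share of all genes that passed was 0% in each pair other than WMS-200 against WMS-76, with 0.0063%. Adjusted over the 10 pairs of 1 gene, H2-Q7 was higher with WMS-200 than with WMS-64 by 0.48 ± 0.15 (interval 0.17 to 0.78, adjusted p = 0.0372; 0.91 over all genes). In Treg these compounds have different WT numbers, and with the number as a block the difference was 0.43 (interval 0.12 to 0.74), with an adjusted p over the pairs of 0.0535 by edgeR. For H2-K1, 95% intervals over the 10 pairs lay within −0.31 to 0.25, for B2m within −0.33 to 0.34 and for Nlrc5 within −0.50 to 0.46. H2-Q6 had the widest, from −1.15 to 1.20, so for that gene compounds were compared least precisely. The test among the 5 agonists gave an adjusted p of 0.994 for each of the 10 genes.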

How the data were processed

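Poly(A)-enriched RNA of 24 libraries was sequenced, and the authors deposited 1 table of read counts per gene, not normalized. Per the submitters' processing notes fastp, HISAT2 and featureCounts were used; no source used here names their versions, the genome build, the annotation or how strand was handled. No value column was without a sample (0 columns). One library whose title and library name disagree with its other labels was placed by source name, characteristics and column name.

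Counts were filtered with filterByExpr of edgeR 4.0.16 (minimum count 10) in R 4.3.3, scaled by TMM to CPM, and tested with quasi-likelihood fits. The first had cell type and treatment (15 residual degrees of freedom, biological coefficient of variation 0.133), and the second an agonist effect within each cell type (16 and 0.127). Benjamini-Hochberg adjustment ran over all 15885 genes with a threshold of 0.05, and intervals are 95%. TPM used the gene lengths of the file. Ratios, sums and levels in CPM or TPM are descriptions without a test. Profiles used a prior count of 2 and the 3 nearest genes. All 10 genes are named. Of the lists, some of the genes past the threshold with the largest changes are named, not in every pair nor always in both directions. H2-T10, H2-Q10, Cd1d1, Ifng, Irf1, Ccr6, Cd4, Psmb8 and Psmb10 were singled out after their values were seen.

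Alternatives were RLE scaling, no filter, length offsets, the WT number as a block, WT number 2 alone, and also paired by treatment (an alternative chosen after seeing the data), limma-voom (limma 3.58.1), DESeq2 1.42.0 and leaving out each library. Replicates differ in treatment, and whether they came from separate animals is not given, so p-values measure the spread between these libraries. The members and lists were chosen with earlier results of these data known. Sequence tables and figures used Python 3.11.15, pandas 2.3.3 and matplotlib 3.10.9.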

Additional observations from a re-analysis of the deposited data

Results flagged for a closer look

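H2-Q6 in Th1 had 1 library far from the other 5. The DMSO library was at 7.71 CPM, the next at 2.47 and the lowest at 1.12, so the gap was 0.794 of the range, above the critical value of 0.625 for 6 samples.

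H2-Q6 in CD8 likewise had its highest library, with WMS-64, at 13.5 CPM, the next at 8.72 and the lowest at 6.3, a gap of 0.663 of the range. In that library H2-Q6 was 39.2% of the summed counts of H2-Q6 and H2-Q7, against 19 to 27.3% in the other CD8 libraries. These were 2 of 44 groups examined, and chance marks about 1 in 20 groups.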

How the results depend on the processing

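Of 446 log2 differences recomputed under other settings, 422 kept their direction and their side of the threshold, as did 1760 of 1810 with 1 library left out. H2-D1 in Treg against Th1 turned to 0.04 with length offsets, and H2-M3 with agonists in Treg to −0.03 with RLE scaling, −0.03 with DESeq2, and it ran from −0.04 to 0.05 with 1 library left out. H2-T22 in Treg against Th17 ran from −0.03 to 0.04 with 1 library left out. With 1 library left out, 3 to 5 genes passed between CD8 and Th1 (3 without the CD8 library with WMS-64), and 0 to 4 with agonists within a cell type. The 0 is without the Treg DMSO library, when the Treg comparison could not be estimated, and the 4 without the Treg library with WMS-200. Within cell types 4 tests passed with no filter, 0 with the WT block and 5 with DESeq2, against 2. Over all genes in Treg, 1817 of 37879 passed with no filter and 1638 of 15885 with DESeq2. In the other cell types 1 to 12 genes passed with no filter and 1 to 11 with DESeq2. With no filter 1 gene passed for all agonists (H2-Q6, −1.08, adjusted p = 7.97e-09 by edgeR) and 6 tests for single compounds. At that setting 26 of all 37879 genes passed for all agonists and 7 to 46 for each single compound. Over all genes, 1401 passed in Treg with agonists and 17 with the WT block. Pairs with Th1 could not be fitted with the block, since Th1 alone has WT number 4. Treg and CD8 share WT number 2 for 4 agonists, and pairing these 8 libraries by treatment as a replicate block, chosen after seeing the data, left 7 of 10 genes past the threshold, where 73.6% of all genes passed: H2-K1 had 0.12 (adjusted p = 0.263), H2-Q6 0.70 (0.0938) and H2-M3 0.26 (0.0503) by edgeR, and B2m had −1.34 (1.31e-11). The cause of these changes was not tested.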

Other observations

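H2-Q6 and H2-Q7 took unequal shares of their summed counts across the libraries: H2-Q6 was 35.3% in the Treg DMSO library and 20.1 to 31.7% with agonists, and 9.09 to 31.4% in Th17. The H2-T genes, summed over 6 genes, were at 522 to 681 CPM in Treg, 498 to 551 in Th1, 495 to 541 in CD8 and 342 to 398 in Th17. Each treatment has 1 library per cell type, so treatment, WT number and library cannot be told apart in Treg beyond the values given.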
